A study of Mus musculus with 2 samples.

Results

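Imprinted genes are read mainly from the copy inherited from 1 parent, the other copy being held silent by DNA methylation and repressive chromatin laid down in the germ line. The 9 such genes described here in cultured mouse neural stem cells were Mest, Nnat, Peg3, Plagl1, Meg3, Grb10, Ndn, Impact and Igf2r. The rows of the filtered count table that carry these names were used, and 8 of the 9 had a row among its 15364 genes. Grb10 had none there, and its level was not analysed here. Counts were not split by parental copy, so imprinting itself was not measured in these cells. The group was chosen by measured values, namely the levels of Mest and Nnat in the activated culture against the quiescent and the 48 h culture. The levels between cultures are therefore descriptions with no test.

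Male C57BL6/J mice, 6 weeks old, gave the hippocampal neural stem cells, which were kept as 4 cultures and sequenced cell by cell with SORT-seq, in which 1 cell is sorted into each well of a plate and its polyadenylated transcripts are tagged with molecular identifiers. The activated culture received 20 ng/mL of FGF-2 and of EGF. The quiescent culture received 50 ng/mL of BMP-4 with FGF-2 and no EGF, and 3 days of this medium counted as quiescence. The cultures at 24 h and 48 h of exit were quiescent cells moved to the activating medium with 0.5 ug/mL of noggin, a protein that binds BMP-4. Heparin was in the medium of all 4. Cells were sorted through 4 gates of punctate autofluorescence, named Low, Low-mid, Mid-high and High. The labels give no more than 1 culture of each condition and do not say how many mice it came from. Quiescent and 24 h cells shared 1 plate, and activated and 48 h cells the other, so plate and state cannot be told apart between those pairs. The per-cell table held 640 cells, namely 174 quiescent, 151 at 24 h, 151 at 48 h and 164 activated, with 32 to 46 for each gate and culture, while the series' design text gives 47 cells for a condition.

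Cell totals ran from 5013 to 97009 transcripts, with medians of 25137, 19270, 24947 and 35946 in the order quiescent, 24 h, 48 h and activated. All 8 neural stem cell markers looked up, among them Sox2, Sox9 and Nes, reached a level of at least 1 CPM in each culture, CPM being a gene's count scaled to the same total of transcripts in every culture. Markers of microglia, endothelium and mural cells summed to at most 2.13 CPM in any culture. Astrocyte markers, several of which neural stem cells also express, summed to 5102, 5700.08, 1944 and 1329.75 CPM in the same order. Oligodendrocyte lineage markers, mostly Olig1 and Olig2, summed to 1979.9, 3684, 3571 and 1881 CPM, and the part of either list in the levels below was not tested. The plates carried the same 384 well barcodes, 269 of which held a kept cell on both.

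Mest encodes a membrane protein of the hydrolase fold and is a paternally expressed gene with high activity in embryonic and proliferating tissue. Nnat encodes neuronatin, a small proteolipid of the endoplasmic reticulum known from developing brain. Peg3 and Plagl1 encode zinc finger transcription factors, Ndn encodes the growth-restraining MAGE protein necdin, and Meg3 is a maternally expressed long non-coding RNA. Impact encodes an inhibitor of the stress kinase GCN2, and Igf2r encodes the receptor that carries IGF2 to the lysosome for breakdown.

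In the GRCm38.p6 annotation of RefSeq, Mest lies at chr6:30733506-30748466 and overlaps Copg2 at its end, and Nnat lies at chr2:157560078-157562525 within Blcap. Peg3 lies at chr7:6703892-6730462 between Zim1 and Usp29, and Igf2r at chr17:12682406-12769706 overlaps the non-coding Airn. Promoters of 8 of the 9 genes were found among 32851 RefSeq promoters of 300 bases, 250 before and 50 after a start. The sequences of Mest and Nnat are shown because these genes carry the main patterns, as the first 280 bases of each window. Capitals mark GCGGCA, the reverse complement of TGCCGC, which is the hexamer known as the binding motif of the imprint-keeping protein ZFP57. The Nnat match runs past the printed end, so only its first 3 letters are shown. The Mest window printed is 1 of 3 listed for that gene.
Mest promoter, GRCm38.p6 chr6:30737800-30738079, plus strand: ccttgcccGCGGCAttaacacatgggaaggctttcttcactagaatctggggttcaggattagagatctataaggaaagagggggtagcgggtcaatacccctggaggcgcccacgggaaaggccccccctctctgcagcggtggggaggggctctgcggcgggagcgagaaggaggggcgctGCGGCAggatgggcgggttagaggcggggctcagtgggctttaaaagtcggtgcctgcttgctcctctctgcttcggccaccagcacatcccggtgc
Nnat promoter, GRCm38.p6 chr2:157559828-157560107, plus strand: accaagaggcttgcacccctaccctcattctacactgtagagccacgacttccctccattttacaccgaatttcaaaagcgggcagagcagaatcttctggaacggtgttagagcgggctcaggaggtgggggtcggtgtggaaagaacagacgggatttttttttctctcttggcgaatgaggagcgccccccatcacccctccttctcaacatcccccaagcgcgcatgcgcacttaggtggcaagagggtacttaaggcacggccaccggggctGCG

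Both strands of every promoter window were searched for TGCCGC. The printed Mest window held 2 matches, as did a window that overlaps it, and the Mest window at the gene's outermost start, chr6:30733256-30733555, held 0. The Nnat window held 1, and 11.6% of all windows held at least 1. Plagl1 had 1 match and Meg3 had 1 in the first of its windows. Grb10 had 0 in its first window and 1 in the other, while the windows of Peg3, Ndn and Igf2r had none. The printed Mest window and the Nnat window each held 17 CG dinucleotides against a median of 7 over all windows, a number that 31.4% of windows reached. The outermost Mest window held 8. A match is a description of these letters and not a measured binding site. Zfp57 itself had 1 count in all 4 cultures together.

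Mest was at 57.1 CPM in the quiescent culture (exact 95% Poisson interval 50.6 to 64.3), at 71.3 CPM at 24 h (62.1 to 81.4), at 437 CPM at 48 h (417 to 458) and at 2058 CPM in the activated culture (2023 to 2093). The level was therefore low and similar for the first 24 h of exit and higher at 48 h, where it had not reached the activated level. These intervals, here and below, cover counting error of summed transcripts only. Activated cells were 36.0-fold above quiescent cells, a log2 ratio of 4.94 after adding 10 CPM to both (95% interval 4.80 to 5.09). The step from 24 h to 48 h was 6.13-fold (log2 2.46, interval 2.28 to 2.64), and the 48 h culture remained 4.71-fold below the activated one (log2 -2.21, interval -2.28 to -2.14). In each of these 3 contrasts the sign was the same in all 4 gates. The log2 ratio of 24 h against quiescent was 0.28 (0.05 to 0.50), positive in 3 of 4 gates.

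**Figure D1:**
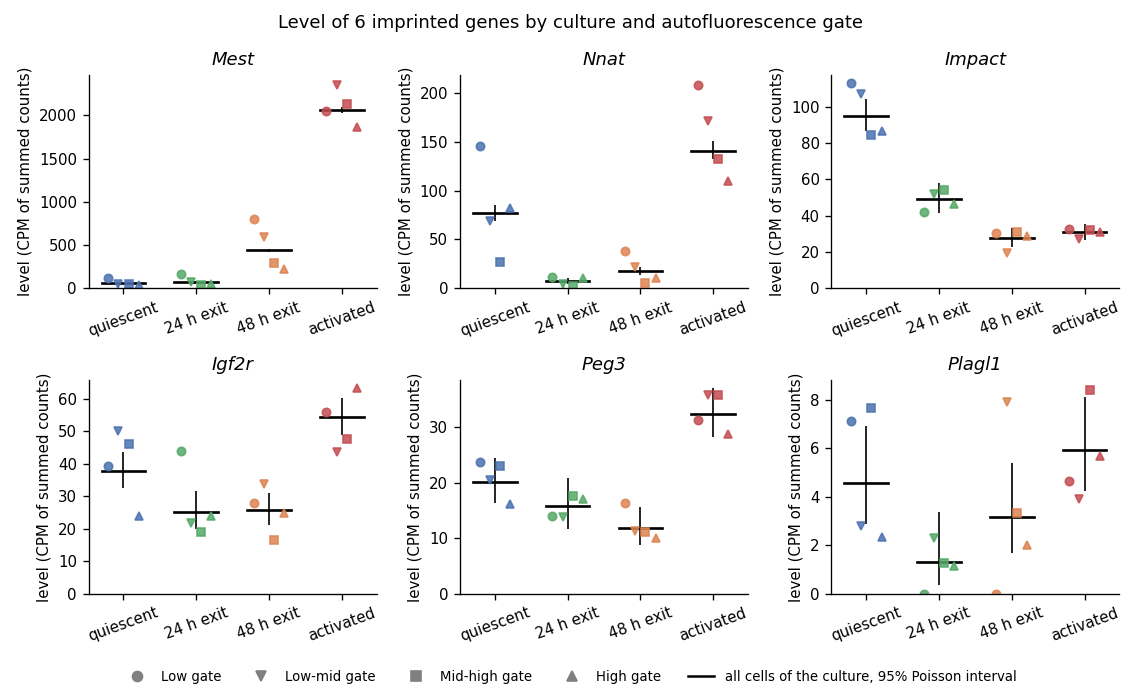
Level of 6 members in CPM of summed counts (vertical axes start at 0) by culture, with 1 symbol for each autofluorescence gate, a bar for all cells of the culture and a line for its exact 95% Poisson interval. Mest is at 57.1 CPM in quiescent and 2058 CPM in activated cells, while Impact is highest in quiescent cells at 95.1 CPM.

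The difference between cultures was seen over the whole range of cells. In single cells the median Mest level was 28.6 CPM in quiescent, 29.5 CPM at 24 h, 254 CPM at 48 h and 2048 CPM in activated cells, and the lowest activated cell was at 168 CPM. Of 325 quiescent or 24 h cells, 27 were at or above that lowest activated cell, as were 105 of the 151 cells at 48 h. Only 4 of the 151 cells at 48 h reached the median activated cell. Most 48 h cells thus lay within the activated range, nearly all of them below its median. After each cell was thinned to 12488 transcripts, 40.4% of 156 quiescent cells held a Mest transcript (exact Clopper-Pearson 95% interval 32.6 to 48.5%), as did 41.0% of 122 cells at 24 h (32.2 to 50.3%) and 91.4% of 140 at 48 h (85.5 to 95.5%). All 158 activated cells, or 100%, held one (97.7 to 100%). Thinning left out 18, 29, 11 and 6 shallower cells in that order. Without thinning the shares were 57.5%, 53.6%, 98.7% and 100%.

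**Figure D2:**
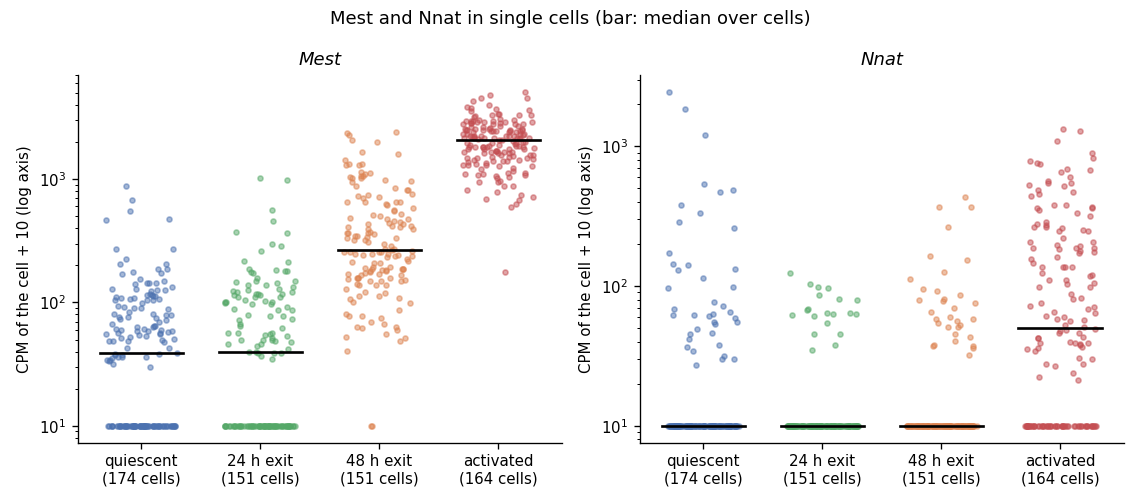
CPM of Mest and Nnat with 10 added, on a log axis, in each of the 640 cells by culture, with a bar at the median over cells. Mest is above 0 in every activated cell, whereas Nnat is at 0 in most quiescent, 24 h and 48 h cells and a few quiescent cells reach the highest values plotted.

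Against the ERCC spike-in, a fixed amount of synthetic RNA, Mest gave 4.38, 3.96, 38.3 and 244 transcripts for each 1000 spike-in transcripts in the order quiescent, 24 h, 48 h and activated. Spike-in scaling moved the median log2 ratio of all genes from 0.07 to 0.47 for activated against quiescent and from -0.01 to -0.29 for 24 h against quiescent. The direction of Mest at 24 h flipped with it, to a log2 ratio of -0.12.

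Nnat followed another course, with its lowest level at 24 h. It was at 76.9 CPM in the quiescent culture (69.2 to 85.1), 6.89 CPM at 24 h (4.27 to 10.5), 17.5 CPM at 48 h (13.7 to 22.0) and 141 CPM in activated cells (132 to 150). The 24 h culture was 11.2-fold below the quiescent one (log2 -2.36, interval -2.63 to -2.05) and the 48 h culture 8.08-fold below the activated one (log2 -2.46, interval -2.69 to -2.22). Both differences had the same sign in all 4 gates. Activated against quiescent gave a log2 ratio of 0.80 (0.64 to 0.96), under the value of 1 used here as a call, and 1.23 after cells were thinned to equal depth.

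The quiescent level of Nnat came from few cells. The 5 cells with the most Nnat held 73.2% of its count in that culture, with 78.7 transcripts in the highest, and without them the level was 21.7 CPM. Leaving out the 5 highest cells of every culture moved the log2 ratio of activated against quiescent to 1.99, that of 24 h against quiescent to -1.07 and that of 48 h against quiescent from -1.66 to -0.71, which ends the last call. In the quiescent culture 8 cells held at least 10 Nnat transcripts, and they came from all 4 gates. All 8 were assigned to G0, as were 146 of the 174 cells of that culture. Their median total was 41199 transcripts, against 24226 in the other 166 cells. In the activated culture 34 cells, or 20.7%, held at least 10, with 73.0% of the count, and no cell at 24 h or 48 h did. The thinned share of cells with a Nnat transcript was 12.8% (8.01 to 19.1%), 9.84% (5.19 to 16.6%), 14.3% (8.95 to 21.2%) and 51.9% (43.8 to 59.9%) in the order quiescent, 24 h, 48 h and activated. The unthinned shares were 23.6%, 13.2%, 21.9% and 65.9%.

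Nnat is also known from neurons, so 8 neuron and neuroblast markers were read beside it, of which 7 had a row. Their summed level was 46.8 CPM in quiescent (29.8 to 89.4 over the gates), 10.2 CPM at 24 h (8.05 to 12.5), 7.76 CPM at 48 h (1.17 to 13.3) and 27.3 CPM in activated cells (22.8 to 32.5). Like Nnat, the sum was higher in quiescent and in activated cells than at 24 h and 48 h. It differed from Nnat in being lower in activated than in quiescent cells and lower at 48 h than at 24 h, and its part in the Nnat levels was not tested. Of the 7, Dcx, Rbfox3 and Neurod1 stayed under 1 CPM in every culture. Tubb3 made up 41.4 of the 46.8 CPM in quiescent cells, where Syt1 was at 3.12 CPM and Prox1 at 1.45 CPM. In activated cells Tubb3 was at 10.7 CPM, Prox1 at 7.77 CPM, Syt1 at 6.71 CPM and Snap25 at 1.37 CPM. The 8 quiescent cells rich in Nnat had a summed neuron marker level of 63.4 CPM against 45.3 CPM in the other 166. In those of them with 78.7, 73.6, 64.5, 36.2 and 18.0 Nnat transcripts the level was 31.2, 65.5, 287, 92.0 and 0 CPM. The cell at 287 CPM weighs on the sum, so no excess common to the 8 cells is read from it.

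Impact was highest where Mest was lowest. It was at 95.1 CPM in quiescent (86.6 to 104), 49.2 CPM at 24 h (41.7 to 57.8), 27.6 CPM at 48 h (22.8 to 33.2) and 30.8 CPM in activated cells (26.7 to 35.3), the last 2 with overlapping intervals. Activated cells were 3.09-fold below quiescent cells (log2 -1.37, interval -1.56 to -1.17), with the same sign in all 4 gates, and the log2 ratio of 48 h against quiescent was -1.48 (-1.71 to -1.25). At 24 h the log2 ratio was -0.83, short of the call, and with spike-in scaling it was -1.19. Under that scaling the ratio of activated against quiescent became -0.86, which ends its call. The thinned share of cells with an Impact transcript, in the order quiescent, 24 h, 48 h and activated, was 70.5%, 41.0%, 31.4% and 33.5%, against 83.3%, 56.3%, 51.0% and 63.4% unthinned.

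Peg3 and Igf2r both had their highest level in the activated culture. Peg3 was at 20.1 CPM in quiescent (16.3 to 24.6), 15.8 CPM at 24 h (11.6 to 20.9), 11.9 CPM at 48 h (8.79 to 15.7) and 32.5 CPM in activated cells (28.2 to 37.1). Its intervals overlapped between quiescent and 24 h and between 24 h and 48 h. Igf2r was at 37.8 CPM in quiescent (32.5 to 43.7), 25.3 CPM at 24 h (19.9 to 31.6), 25.7 CPM at 48 h (21 to 31.1) and 54.3 CPM in activated cells (48.8 to 60.2). The 24 h and 48 h levels of Igf2r could not be separated. For activated against quiescent its log2 ratio was 0.43. By gate from Low to High that ratio was 0.42, -0.17, 0.04 and 1.12, so the rise was not seen in every gate. The same ratio of Peg3 was 0.49 and positive in all 4 gates. The log2 ratios of 48 h against activated were -0.96 for Peg3 and -0.85 for Igf2r, just short of the call. With spike-in scaling they passed it at -1.32 and -1.24.

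Plagl1 was near the limit of these libraries, with 22, 4, 13 and 39 counts in the order quiescent, 24 h, 48 h and activated, or 4.57, 1.31, 3.15 and 5.94 CPM. Its log2 ratio of activated against quiescent was 0.13 (-0.14 to 0.38), which does not separate those cultures. Meg3 had 3, 1, 1 and 0 counts, and the 0 of the activated culture allows up to 0.457 CPM, the worth of 3 counts there. Ndn had 2, 1, 2 and 3 counts. Both were at or under 3 counts in every culture, so no ratio is given for them.

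Counted over members with at least 20 counts in a contrast, 2 of 6 passed a log2 ratio of 1 in size for activated against quiescent. Of all 11011 genes with at least 20 counts, 15.6% passed. For 24 h against quiescent 1 of 6 passed against 3.51% of all such genes, and for 48 h against 24 h 1 of 5 against 7.12%. For 48 h against activated 2 of 6 passed against 2.88%, and for 48 h against quiescent 3 of 6 against 9.22%. The genes were chosen with such values known, so nothing is read from these shares. For 48 h against activated, all 6 measured members had a negative log2 ratio, where 38.8% of all genes were positive. The intervals of Impact (-0.37 to 0.14) and Plagl1 (-0.51 to 0.01) held 0. The members' median was -0.90 beside -0.08 over all genes. For activated against quiescent 5 of 6 were positive, as were 55.1% of all genes, with a median of 0.46 beside 0.07. The choice of the genes used these same contrasts, so nothing is read from the signs and medians either.

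**Figure D3:**
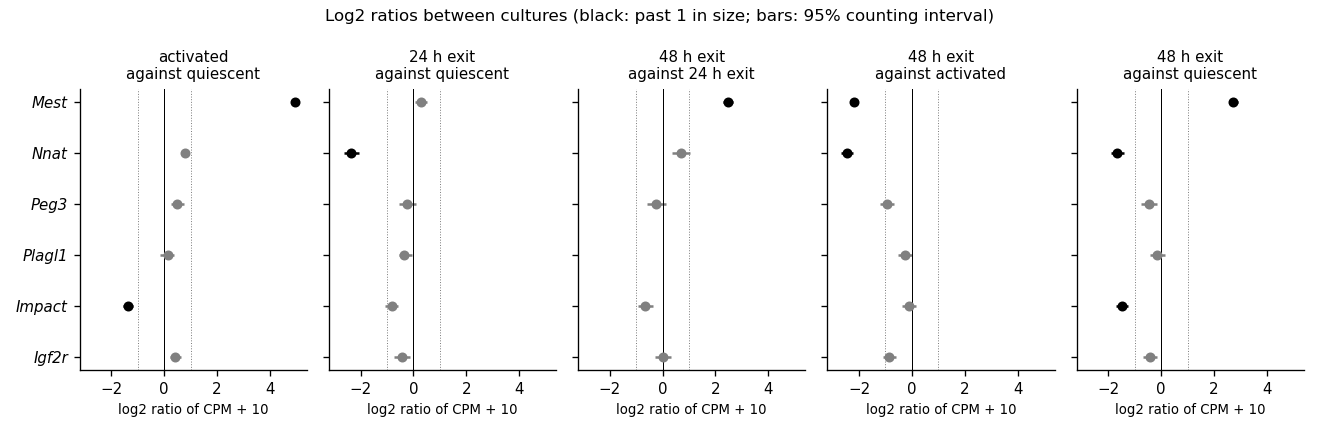
Log2 ratio of CPM with 10 added between cultures for 6 members in 5 contrasts, with 95% counting intervals, black where the size passes 1. Mest lies at 4.94 and Impact at -1.37 for activated against quiescent, and Nnat lies at -2.36 for 24 h against quiescent. Contrasts that share a culture are not independent.

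The 4 cultures gave the only replicated comparison, that of the highest against the lowest autofluorescence gate with culture as a block. The sums of each gate and culture were fitted with edgeR's quasi-likelihood test over 8739 genes. Mest and Nnat were lower in the High gate, and Peg3, Impact and Igf2r did not pass the test, while Plagl1, Meg3 and Ndn were too low to enter it. Of all genes tested 2.38% were called and 0.481% were called as lower in the High gate, and 2 of the 5 tested members were called as lower.

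Mest fell from the Low to the High gate in every culture by normalised CPM, from 108 to 45.8 in quiescent cells, from 161 to 54.1 at 24 h, from 763 to 254 at 48 h and from 1924 to 1814 in activated cells. The difference of these sums was large in the first 3 cultures and small in the activated one, where log2 was -0.08. The unthinned share of cells with Mest was close between Low and High in quiescent cells (65.1% against 61.4%) and at 24 h (59.4% against 56.8%). The median cell was at 70.0 against 26.3 CPM in quiescent cells and at 64.2 against 35.8 CPM at 24 h. At 24 h, 4 G1 cells held 30.1 of the 80.1 Low counts. The fitted log2 ratio was -1.01 (SE 0.198, edgeR adjusted p = 0.00907). Without the 48 h culture the edgeR adjusted p was 0.204 at a log2 ratio of -0.76.

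Nnat went from 137 to 91.7 in quiescent cells, from 12 to 11.1 at 24 h, from 36.5 to 11.3 at 48 h and from 196 to 107 in activated cells. By normalised CPM it was lower in the High gate in 4 of 4 cultures, although by little at 24 h. That difference rests on 6 counts in the Low and 9 in the High gate. In quiescent cells 1 cell held 78.7 of the 123 Low counts, and 1 held 73.6 of the 142 High counts. The unthinned share of cells with Nnat was higher in the High gate there (27.3% against 23.3%) and at 24 h (21.6% against 18.8%). The share was lower at 48 h (22.5% against 26.2%) and in activated cells (65.2% against 70.6%). The fitted log2 ratio was -0.83 (SE 0.177, edgeR adjusted p = 0.0168). The call was lost without the 48 h culture (adjusted p = 0.121), without the activated culture (0.154) and after cells were thinned to 12488 transcripts (0.0946), each by edgeR.

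For Impact the fitted log2 ratio was 0.03 (SE 0.174), for Peg3 -0.14 (SE 0.258) and for Igf2r -0.15 (SE 0.207), with edgeR adjusted p of 0.963, 0.855 and 0.797. Such values do not show that these genes were equal between gates. Igf2r lay on both sides of 0 among the cultures, at -0.60 at 24 h and 0.20 in activated cells.

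**Figure D4:**
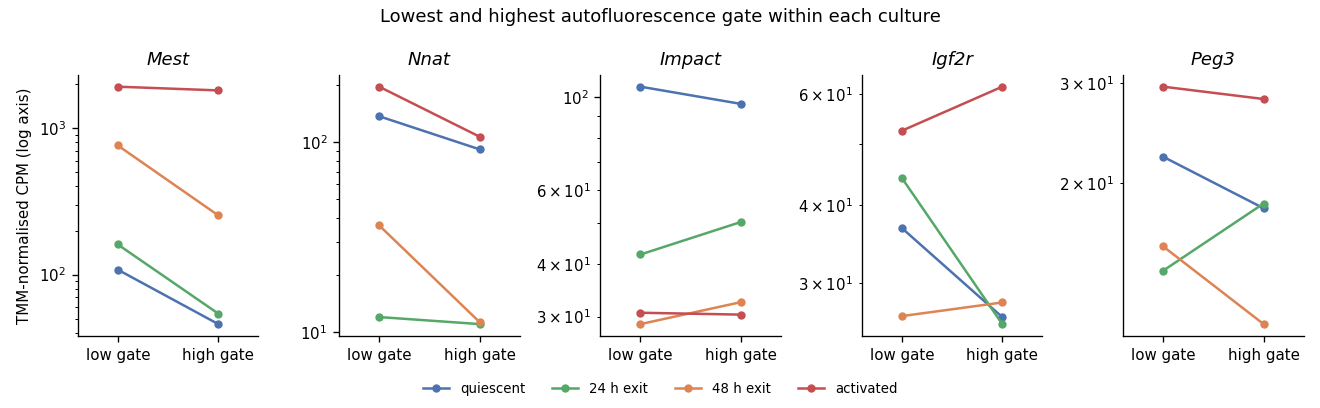
TMM-normalised CPM (log axes) of the 5 tested members in the Low and High gate, with 1 line for each culture. All 4 lines of Mest and of Nnat point down, the Mest line of activated cells only from 1924 to 1814, and the lines of the other genes cross or differ in direction.

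Astrocyte markers also differed between gates, with summed levels from Low to High of 5509.87 to 4661 CPM in quiescent cells, 3619 to 6419 CPM at 24 h, 1379 to 2546 CPM at 48 h and 1133 to 1418 CPM in activated cells. They were thus higher in the High gate in 3 cultures and lower in the quiescent one, and their part in the gate result was not tested.

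Gate and cell cycle phase moved together, and not only in the 48 h culture. At 48 h, 0% of 42 Low cells and 32.5% of 40 High cells were assigned to G0 by the authors, and median cell totals were 20340.3 and 33588. In the activated culture 100% of Low and 78.3% of High cells were in S or G2M. G0 cells made up 76.7% of the Low and 86.4% of the High gate in the quiescent culture, and 84.4% and 89.2% at 24 h. Median totals were higher in the High than in the Low gate in all 4 cultures, and after cells were thinned to equal depth the log2 ratio of Mest was -0.996 (edgeR adjusted p = 0.00729). Among S and G2M cells alone at 48 h, Mest was at 783 CPM in the Low gate (718 to 852) and 269 CPM in the High gate (238 to 303). Among G0 cells alone it was at 94.8 against 36.7 CPM in the quiescent culture and 116 against 46.5 CPM at 24 h. Among S and G2M cells of the activated culture the levels were 2047 and 1963 CPM, with overlapping intervals. When the test was refitted on G0 cells of the quiescent and 24 h cultures and on S and G2M cells of the other cultures, a choice made after the data were seen, the log2 ratio of Mest was -0.80 (edgeR adjusted p = 0.0275) and that of Nnat -0.79 (edgeR adjusted p = 0.0223). Leaving out the 5 cells of each culture with the most Mest gave -0.45 (edgeR adjusted p = 0.130).

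Within the 48 h culture Mest stood lower in G0 than in cycling cells. It was at 127 CPM in 22 G0 cells (98.6 to 161), 435 CPM in 21 G1 cells (381 to 494), 477 CPM in 50 S cells (441 to 515) and 505 CPM in 58 G2M cells (471 to 540). The G0 interval lay below the other 3, which overlapped. Quiescent cells showed 49.8 CPM in 146 G0 cells (43.2 to 57.2), 116 CPM in 12 G1 cells (78.1 to 165) and 95.5 CPM in 11 S cells (62.4 to 140). In the activated culture the phases differed less, with 1852 CPM in G1, 2299 CPM in S and 1954 CPM in G2M. S or G2M cells at 48 h thus remained well under activated cells of the same phases, and the G1 cells did too.

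Nnat in activated cells was at 65.4 CPM in 23 G1 cells (51.1 to 82.5), 162 CPM in 61 S cells (146 to 179) and 153 CPM in 79 G2M cells (139 to 167). The G1 level lay below the other 2. Peg3 showed the same order there, at 15.6 CPM in G1 (9.12 to 25.1), 42.0 CPM in S (34.1 to 51.2) and 31.1 CPM in G2M (25.3 to 38.0). Igf2r ran the other way, at 76.4 CPM in G1 (60.9 to 94.7), 45.4 CPM in S (37.2 to 54.9) and 53.3 CPM in G2M (45.5 to 62.0). Impact at 48 h was at 51.9 CPM in G1 (34.5 to 75.0) and 21.1 CPM in S (14.1 to 30.3). These phases were assigned from the same counts, and cells of 1 culture are not replicates.

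**Figure D5:**
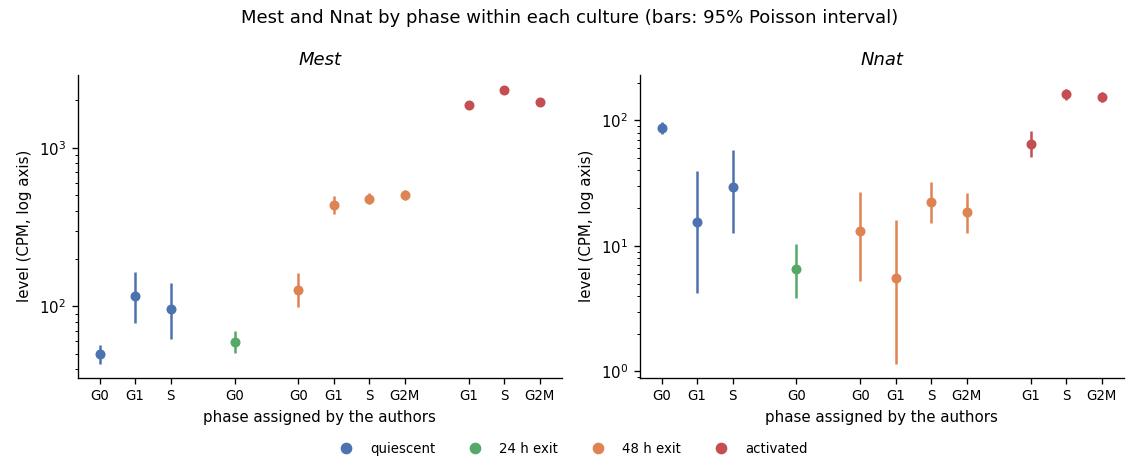
Level of Mest and Nnat in CPM (log axes) by phase within each culture, for phases with at least 10 cells, with exact 95% Poisson intervals. Mest at 48 h goes from 127 CPM in G0 to 505 CPM in G2M, and Nnat in activated cells from 65.4 CPM in G1 to 162 CPM in S.

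The authors' 4 clusters largely matched the cultures, with 166 quiescent cells in cluster 1, 145 cells of 24 h in cluster 0, 109 cells of 48 h in cluster 3 and 163 activated cells in cluster 2. The 48 h culture was the one spread over clusters, with 41 cells in cluster 0. Mest was at 234 CPM in those 41 cells (206 to 265) and at 503 CPM in the 109 cells of cluster 3 (478 to 529). The 145 cells of 24 h in cluster 0 were at 63.3 CPM (54.5 to 73.2), so the 48 h cells placed with them by clustering had more Mest. The single 48 h cell in cluster 2 was at 1281 CPM and held 8.01 Nnat transcripts. Nnat at 48 h was at 6.56 CPM in cluster 0 (2.64 to 13.5) and 18.8 CPM in cluster 3 (14.2 to 24.3).

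Over single cells thinned to equal depth, Spearman's rho at 48 h was -0.45 between Mest and autofluorescence and -0.53 between Mest and the authors' G0 score over 140 cells. Autofluorescence and the G0 score themselves had rho 0.53 there. Mest and autofluorescence had rho -0.18 in quiescent cells, -0.13 at 24 h and -0.07 in activated cells. Mest and Nnat had rho of 0.11, 0.13, 0.17 and 0.06 in the order quiescent, 24 h, 48 h and activated. These cells share a culture and a plate, and the values describe these libraries only.

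Over the 16 sums of culture and gate, the genes most like Mest included Rps3a1 (Pearson r 0.991), Eif2s1 (0.990), Rps24 (0.990) and Med10 (0.989), among 9494 genes. Rps3a1 and Rps24 encode proteins of the small ribosomal subunit and Eif2s1 encodes a subunit of the initiation factor eIF2. The genes most like Nnat were Ngfrap1 (0.958), Hspa5 (0.955), Tnc (0.934), Hsph1 (0.927) and Maged1 (0.926). Hspa5 and Hsph1 encode chaperones and Tnc encodes the matrix protein tenascin C. Mest had r 0.56 with Nnat and -0.73 with Impact, and Nnat had r 0.82 with Peg3 and 0.73 with Igf2r. Sums of 1 culture share its cells' state and depth, so no p is given.

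Of the genes next to or overlapping members, Blcap around Nnat was at 31.2, 46.6, 23.0 and 20.4 CPM in the order quiescent, 24 h, 48 h and activated. Its highest level was at 24 h, where Nnat was lowest. Copg2, whose end overlaps that of Mest, stayed between 0.242 and 2.63 CPM, and Airn, which overlaps Igf2r, between 2.28 and 4.88 CPM. Zim1 and Usp29 beside Peg3 had at most 6 and 9 counts in a culture. Osbpl1a beside Impact was at 107, 113, 61.6 and 25.3 CPM. Whether reads were assigned by strand is not given in the sources used here, so transcripts of overlapping genes could be mixed.

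Of 67 other genes listed as imprinted, 46 had a row and 31 were measured for activated against quiescent. Of these, 4 passed a log2 ratio of 1 upwards and 4 downwards, where 15.6% of all genes passed in either direction, and the median was -0.05 beside 0.07 over all genes. Peg12 had a log2 ratio of 2.32 (6.02 to 70.1 CPM) and Peg10, a retrotransposon-derived gene, of 1.46 (129 to 373 CPM). Axl, a receptor tyrosine kinase, had -1.46. For 24 h against quiescent none of 28 passed in either direction, against 3.51% of all genes, and Herc3 (-0.75), Peg10 (0.62) and Gnas, the gene of a stimulatory G protein subunit (-0.53), lay farthest out. Between 24 h and 48 h only Peg12 passed of 29, at 1.45 (7.12% of all genes passed), with Axl at -0.80 and Nap1l5 at -0.79. For 48 h against activated 3 of 31 passed, against 2.88% of all genes, all 3 higher at 48 h, namely Tssc4 (1.56), Gatm (1.11) and the tetraspanin gene Cd81 (1.06). Whether these 3 are imprinted in neural stem cells was not measured. Peg12 was also the 1 of 30 that passed for 48 h against quiescent, at 1.44 (9.22% of all genes passed), with Nap1l5 at -0.99 and Axl at -0.98. In the gate test, where 2.38% of all genes were called, 27 of these genes entered and 1 was called, Tssc4, higher in the High gate (log2 0.61, SE 0.146, edgeR adjusted p = 0.0295).

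Genes that write, keep or remove the methylation and chromatin of imprints were looked up as a second list. It includes Tet1, Tet2 and Tet3, whose enzymes oxidise methylated cytosine and so act against its upkeep. Of 12 measured, 10 were higher, Tet1 and Tet3 among them, and 3 passed a log2 ratio of 1 for activated against quiescent. Over all genes 55.1% were higher and 15.6% passed in either direction. The list had a median log2 ratio of 0.48 beside 0.07 over all genes. The leading ones were Uhrf1 (2.20), which recruits the maintenance methyltransferase, Dnmt1 (1.67), that enzyme itself, and Trim28 (1.42), the co-repressor bound by ZFP57. Between 24 h and 48 h 4 of 11 passed, against 7.12% of all genes, with Uhrf1 at 2.15, Dnmt1 at 1.96 and Trim28 at 1.12. For 24 h against quiescent none of 11 passed (3.51% of all genes), with Cbx5 at -0.97, Tet3 at 0.74 and Dnmt1 at -0.65. For 48 h against activated none of 12 passed (2.88% of all genes), with Trim28 at -0.55, Cbx5 at -0.37 and the insulator protein gene Ctcf at -0.37. Against quiescent cells, 48 h cells had 2 of 11 past it (9.22% of all genes), Uhrf1 at 1.94 and Dnmt1 at 1.31, with Trim28 at 0.87. Uhrf1 and Dnmt1 are also known as genes of S phase. Cells in S and in G2M numbered 11 and 5 of 174 quiescent cells and 4 and 3 of 151 at 24 h. They numbered 50 and 58 of 151 at 48 h, and 61 and 79 of 164 activated cells. The part of phase in these ratios was not tested. None of the 11 that entered the gate test was called by edgeR, against 2.38% of all genes, with 2 at an unadjusted p under 0.05, and DESeq2 called 0 of the 2 to which it gave an adjusted p. Of the 11, 10 had a negative log2 ratio, with a median of -0.24 beside -0.002 over all 8739 genes tested. With none of them called, no common change is read from these signs.

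Insulin-like growth factor genes were the third list, since Igf2r binds IGF2. Igf2 itself had 2, 2, 2 and 3 counts. Of 14 measured for activated against quiescent, 2 passed upwards and 2 downwards, against 15.6% of all genes in either direction, with Igfbp4 at -2.07, the receptor gene Igf1r at 1.30 and Insr at -1.23. For 24 h against quiescent none of 12 passed (3.51% of all genes), with Insr at -0.95, Igfbp3 at -0.50 and Irs1 at 0.43. Between 24 h and 48 h none of 12 passed either (7.12% of all genes), with Irs2 at 0.53, Insr at -0.51 and Igfbp3 at -0.41. For 48 h against activated 3 of 14 passed (2.88% of all genes), Igfbp4 at 2.31, Igfbp5 at -1.31 and Igf1r at -1.20. Insr was the 1 of 13 that passed for 48 h against quiescent (9.22% of all genes), at -1.46, with Igfbp3 at -0.91 and Irs2 at 0.89. In the gate test 2 of 12 were called, against 2.38% of all genes, both higher in the High gate, Igfbp2 (log2 0.58, SE 0.127, edgeR adjusted p = 0.0190) and Igfbp3 (log2 0.61, SE 0.147, edgeR adjusted p = 0.0317).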

How the data were processed

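SORT-seq transcripts of 640 cells from 4 cultures on 2 plates were analysed. The deposited values are expected counts, transcript numbers that the authors corrected for collisions among 4096 molecular identifiers, per the values themselves, since inverting that correction gave whole identifier counts within 0.0001 throughout. BWA 0.7.15, R 4.2.0, Seurat 4.1.1 and the builds mm10 and hg19 are named, without roles, in the submitters' processing notes. Gates, phases, clusters, G0 scores and autofluorescence were taken from the authors' deposited per-cell table, whose phase labels and scores were used as given. The deposited fluorescence and scatter values are detector intensity values.

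Counts were summed by culture, gate, phase or cluster and given as CPM of the total, with exact Poisson intervals. Log2 ratios used CPM with 10 added and a conditional binomial interval, and a size of 1 with at least 20 counts was called. With 1 culture for each condition there is no test between conditions. Gates were compared with edgeR 4.0.16 (R 4.3.3) on rounded sums, with TMM factors, filterByExpr, culture as a block and Benjamini-Hochberg adjustment at 0.05; the cultures stand in different states and the labels do not say whether they came from separate animals, so p-values measure the spread among these sums. DESeq2 1.42.0 was an alternative. On simulated gate data of 8533 genes, 84.8% of 2-fold changes and 27.7% of 1.5-fold changes were recovered, with 10 false calls. That simulation gave a changed gene the same fold in all 4 cultures and all genes the same spread. Its shares need not hold for genes whose gate difference varies by culture or rests on few cells. On simulated sums of activated against quiescent cells, 95.9% of 10605 intervals held the true ratio. Those sums were drawn with Poisson counting error only, as the interval assumes. The share therefore checks the calculation and says nothing on spread between cells or cultures.

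The members and the gene lists were chosen with earlier results of these data known. The 8 members with a row were described, and of each list the 3 genes of largest log2 ratio with at least 100 counts were named for each contrast, with those called in the gate test. The 5 genes most like Mest and Nnat were taken by Pearson r. Of these, 1 is not reported here. The percent of mitochondrial and of ribosomal counts in each cell, deposited by the authors, was not used.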

Additional observations from a re-analysis of the deposited data

Results flagged for a closer look

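Wells of the plates that are not in the per-cell table still held transcripts of members. In the 69 such wells of the plate with activated and 48 h cells, Mest had 77.0 counts, spread over 21 wells, which is 505 CPM of their summed total. Nnat had 8 counts there. In the 59 such wells of the plate with quiescent and 24 h cells, Mest had 2 counts and Nnat 0. These values lie above the 3 counts that a count of 0 allows, for the first plate only, and no comparison above used these wells.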

How the results depend on the processing

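Among the alternative values of the members' log2 ratios between cultures, 261 stayed within the main counting error and 58 moved. Calls among members went from 1 to 2 for 24 h against quiescent with 1 CPM added (Plagl1) and with spike-in scaling (Impact), from 1 to 2 for 48 h against 24 h with 1 CPM added (Nnat), and from 2 to 4 for 48 h against activated under both settings (Peg3 and Igf2r); the cause was not tested. Leaving out 1 gate at a time gave 1 to 2 calls for 48 h against 24 h, the 2 without the High gate.

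In the gate comparison edgeR called 166 genes higher and 42 lower in the High gate. DESeq2 called 95 higher, and 1 member, with no adjusted p for Nnat. Testing every gene with a count gave 305 and 109, and a linear trend over all 4 gates 417 and 221. With cells of matched phase there were 70 and 14, and with thinned cells Mest was the 1 member called. Leaving out 1 culture at a time gave 19 to 146 higher, 1 to 34 lower and 0 to 2 members, the lowest without the 48 h culture, and without the activated culture there were 69, 15 and 1. The cause was not tested. The cultures pair the gates, since both gates were sorted from the same culture. Without the replicate block no gene was called, 0 higher, 0 lower and 0 members by edgeR (114 genes and 0 members at an unadjusted p under 0.05), at an adjusted p of 0.9997 for Mest and Nnat.

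Depth limits Plagl1, Meg3 and Ndn. The intervals cover counting error only, and 1 culture for each condition leaves the spread between cultures unknown.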
